A study of Mus musculus with 14 samples.

Results

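Macrophages sorted from the lamina propria of the mouse colon were compared between animals with and without a Cre recombinase that removes Tsc2 in myeloid cells. The macrophage libraries were chosen by their titles and made up 6 of the 14 libraries of the series, and the other 8 held CD44+ epithelial cells of the colon. The sort kept leukocytes (CD45+) with CD64, MHC class II and CD11b on their surface, and removed those with Ly6C, CD103, CD24, Ly6G or SiglecF. Every animal was Tsc2fl/fl, so that controls carried the floxed allele too. The 3 libraries called cre came from Tsc2fl/fl Lyz2cre/+ mice, numbered 8, 9 and 10, all male. The 3 libraries called wt came from Tsc2fl/fl mice without the recombinase, numbered 2, 4 and 6, of which 2 and 4 were female and 6 was male. Age and strain are not given in the labels used here. Each number was taken as 1 mouse, and p-values measure the spread between these mice. Animals with the recombinase but no floxed Tsc2 are not among the groups, so that an effect of the Cre allele and of the deletion cannot be told apart. Genotype and sex are also partly confounded. The Lyz2 locus drives Cre in macrophages, monocytes and neutrophils alike, so that the sorted cells were not the only cells of the animal without Tsc2.

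Tsc2 encodes tuberin, which with hamartin restrains mTORC1, a kinase complex at the lysosome surface that matches growth to the supply of amino acids and growth factors. When the restraint is lost, mTORC1 stays active, which is known to raise synthesis of protein, lipid and nucleotides, to hold back autophagy, and to act on the MiT/TFE transcription factors of lysosomal genes. Macrophages of the gut wall clear dead cells and bacteria, tolerate the microbiota, and send signals to the epithelium, to nerves and to other immune cells. The account below covers the genotype effect across all expressed genes, with most room for groups other than lysosomal, lipid handling, dendritic cell and antigen presentation genes.

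The macrophage libraries held 7269103 to 9147484 counts over 55487 genes, and levels are given as CPM (counts relative to a library's total after TMM scaling) in the order wt 2, wt 4 and wt 6, then cre 8, cre 9 and cre 10. The macrophage marker Csf1r stood at 1270.4, 1530.0 and 1515 CPM in wt and 1978, 1696 and 1667 CPM in cre, and C1qa at 1015, 1601 and 1444 and 2479, 1674 and 1721 CPM. Both were abundant in every library. The 16 macrophage markers summed to 13849, 18519 and 18108 CPM in wt and 22498, 18549 and 18618 CPM in cre. Transcripts of stromal cells were present as well. The summed level of the 26 fibroblast and smooth muscle markers was 12271, 13059 and 7581 CPM in wt and 3586, 6454 and 4902 CPM in cre. Dendritic cell markers summed to 3687, 2753 and 2851 CPM in wt and 2532, 2271 and 2408 CPM in cre. For the stromal and dendritic cell sums every cre library lay below every wt library. For the macrophage sum every cre library lay above every wt library. For each of these sums the two-sided exact permutation p was 0.1, or 0.233 after adjustment over 14 library measures. The part of these differences in the changes of single genes was not tested. A permutation test of 3 against 3 libraries cannot give a p below 0.1. The ribosomal RNA gene CT010467.1 took 19.9, 20.6 and 19.5% of counts in wt and 25.5, 19.1 and 26.4% in cre, and genes of the mitochondrial DNA took 4.51, 6.12 and 6.45% and 9.83, 6.0 and 6.44%.

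Tsc2 itself (ENSMUSG00000002496, chromosome 17, 24595816 to 24632630, minus strand) stood at 37.0, 34.1 and 22.9 CPM in wt and 29.0, 31.9 and 24.1 CPM in cre, and the groups overlapped. Its difference of -0.14 on the log2 scale (SE 0.23, edgeR adjusted p = 0.860) did not pass, and the sign turned in males alone, where it was 0.32, and with sex in the model, where it was 0.31. Reads from exons that Cre leaves in place are counted too, so that this level checks the deletion poorly. Lyz2 (ENSMUSG00000069516, chromosome 10, 117277331 to 117282321, minus strand), which encodes lysozyme and carries the recombinase, stood at 6292, 7848 and 7767 CPM in wt and 6466, 6164 and 6204 CPM in cre, and did not pass (log2 change -0.22, SE 0.15, edgeR adjusted p = 0.634). Tsc1, the partner of Tsc2, did not pass (log2 change 0.77, edgeR adjusted p = 0.314).

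By edgeR few genes changed, and most that did rose. Of 14087 genes tested with edgeR's quasi-likelihood test, 133 (0.944%) had a Benjamini-Hochberg adjusted p under 0.05. Of these, 103 (0.731%) were higher and 30 (0.213%) were lower in cre. DESeq2 called 485 genes, 263 higher and 222 lower, so that the excess of rises was small there. By edgeR 29 rises and 5 falls reached 4-fold, of which 8 rises were antibody segments and 2 pseudogenes, 62 rises and 25 falls lay between 2-fold and 4-fold, and the remaining 12 rises were smaller. The levels of the genotypes did not overlap for any of the 133, as against 1450 genes (10.3%) with all cre libraries above and 1352 (9.6%) with all wt libraries above among all genes. At an unadjusted p under 0.05 there were 1802 genes (12.8%), and DESeq2 called 477 (3.39%) of the 14087. Of the 103 rises, cre 8 was the highest cre library for 83, cre 10 for 14 and cre 9 for 6. Of the cre libraries, cre 8 also had the highest macrophage marker sum, the lowest stromal marker sum and the highest mitochondrial share. The part of these differences in its lead was not tested. Among the falls, the male control wt 6 was the lowest wt library for 22 of 30. No gene of the Y chromosome and not Xist was called.

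**Figure D1:**
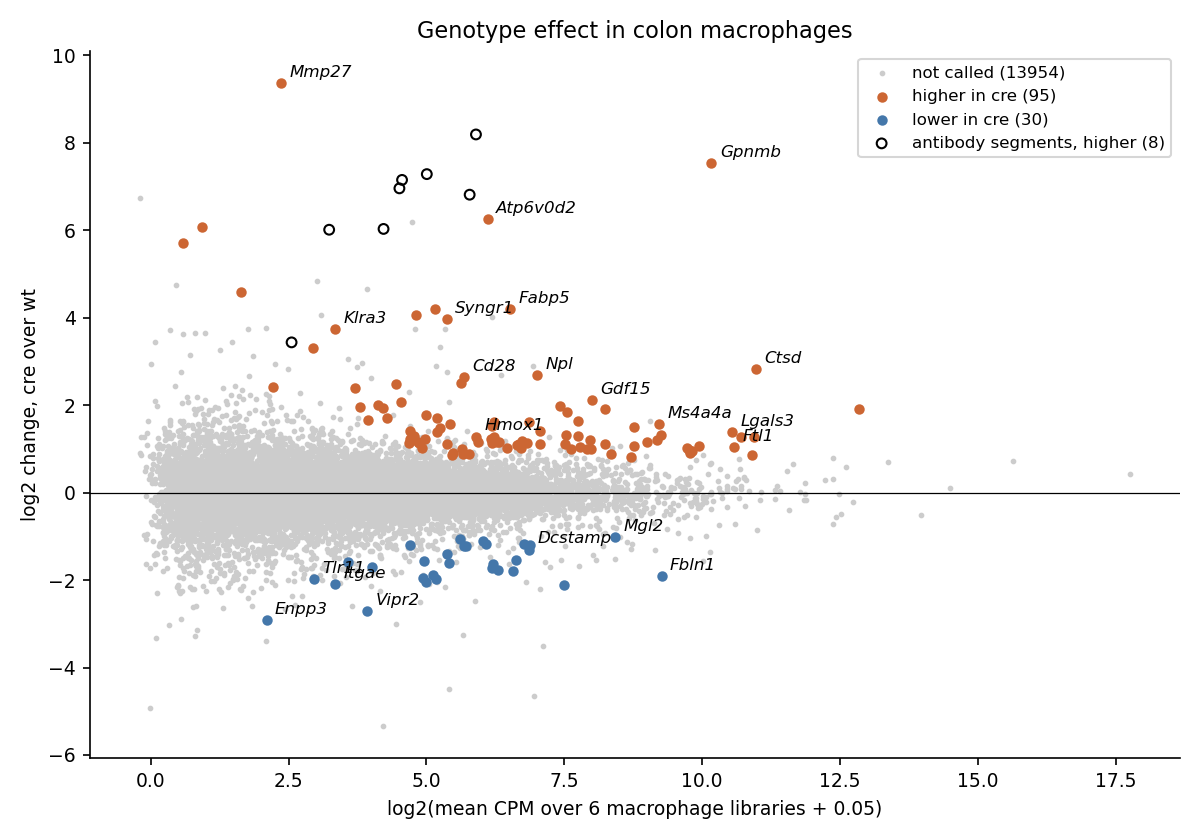
Each point is 1 of 14087 genes: the horizontal axis gives its mean level over the 6 macrophage libraries, as log2(CPM + 0.05), and the vertical axis its log2 change, cre over wt, with genes past the adjusted p of 0.05 in colour and the 8 antibody segments among them as open circles. Called rises reach from low levels to Ctsb near the right edge and outnumber the 30 falls, which do not go beyond -2.91.

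The calls depended on single libraries and on how sex was treated. Without cre 10 there were 29 calls, all higher (1280 genes at an unadjusted p under 0.05), and without wt 4 there were 35. The count was 41 without wt 2, 44 without cre 8, 62 without wt 6 and 87 without cre 9. With sex in the model 2 genes passed, Gpnmb, a glycoprotein of lipid-laden macrophages, and the antibody segment Igkv3-7, and 1130 had an unadjusted p under 0.05. In males alone 32 passed, of which 14 were among the 133. That fit has 1 wt library, which is assumed to vary as the 3 cre libraries do, and its log2 changes for Ctsd, Cd28 and Npl were 3.23, 2.46 and 2.47 against 2.83, 2.65 and 2.68 over all 6 libraries. All 133 kept the direction of their change in 14 of 17 alternative analyses, and in the other 3, with other filters on low values, the 128 or 129 of them that were tested did. In all 6 analyses that left out 1 library 22 of the rises and none of the falls passed. The 22 were 4 antibody segments, 2 processed pseudogenes that match Fabp5, the lysosomal genes Gpnmb, Ctsd, Ctsb, Pld3 and Dpp7, and Fabp5, Mmp27, Syngr1, Npl, Cd28, Ttyh2, Cnrip1, Gdf15, Wfdc17, Slc37a2 and Tmem86a.

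Receptors of the cell surface formed the first large group outside the lysosome. Of 48 measured paired and inhibitory receptors, which carry signals that dampen or set off immune cells, 8 rose and none fell, a share of 16.7% against 0.731% of all genes tested that were called higher. The median log2 change of all 48 was 0.00, the same as for all genes tested, with 24 positive and 24 negative members. At an unadjusted p under 0.05 there were 12 higher and 8 lower (41.7%, against 12.8% of all genes tested). DESeq2 called 8 (16.7%, against 3.39%). The 8 were Klra3 and Klra10 of the Ly49 receptors, Cd200r4 and Cd200r1, Cd300ld2 and Cd300ld3, the sialic acid receptor Cd22, and the lipid receptor Trem2. This list and the other first lists below were chosen with earlier results of these data known. Their shares beside those of all genes are therefore descriptions. The counts below for whole families come from lists drawn up after these values were seen.

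The Ly49 genes are best known as receptors for MHC class I on natural killer cells, and the 2 that rose were close to silent in control macrophages. Klra3 (ENSMUSG00000067591, chromosome 6, 130323289 to 130337574, minus strand) stood at 1.13, 2.65 and 0.474 CPM in wt and 22, 16.2 and 18.2 CPM in cre (log2 change 3.74, SE 0.50, edgeR adjusted p = 0.0152). The levels of the genotypes were far apart. Klra10 (ENSMUSG00000072718, chromosome 6, 130269194 to 130281928, minus strand) had 6 counts over the 3 wt libraries and 129 over the cre libraries, a ratio of 24.5 with a 95% counting interval of 10.96 to 68.0 (log2 change 4.58, SE 0.58, edgeR adjusted p = 0.0110). Klra9 did not pass (log2 change 3.64, adjusted p = 0.106), with 0.102, 0 and 0.711 CPM in wt and 3.64, 3.78 and 3.27 CPM in cre. The most abundant of the 5 members tested, Klra2, went the other way and its groups overlapped, at 33.8, 57.7 and 55.8 CPM in wt and 28.1, 37.8 and 28.9 CPM in cre (log2 change -0.63, adjusted p = 0.311). Ly49 genes are near-identical over long stretches, and 50-base reads may be assigned to the wrong member.

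Receptors of the CD200 family bind the surface protein CD200 of neighbouring cells and quieten myeloid cells, or pair with activating adaptors. Both members tested rose. Cd200r4 (ENSMUSG00000062082, chromosome 16, 44811733 to 44839150, plus strand) went from 0.410, 1.85 and 2.01 CPM to 13.8, 15.1 and 12.8 CPM (log2 change 3.30, SE 0.49, edgeR adjusted p = 0.0234), and the inhibitory Cd200r1 from 21.9, 20.4 and 17.7 CPM to 36.0, 40.5 and 44.7 CPM (log2 change 1.01, SE 0.19, edgeR adjusted p = 0.0449). Of 11 genes of the CD300 family, receptors for lipids of dying cells, 2 rose (18.2%, against 0.731% of all genes tested). Cd300ld2 (ENSMUSG00000089753, chromosome 11, 115010335 to 115016193, minus strand) stood at 5.53, 9.92 and 11 CPM in wt and 50.7, 27.3 and 34.0 CPM in cre (log2 change 2.08, SE 0.33, edgeR adjusted p = 0.0267), and Cd300ld3 at 7.68, 9.39 and 10.3 and 40.4, 22.9 and 26.3 CPM (1.71, SE 0.27). Their neighbours Cd300ld4 (log2 change 1.66, adjusted p = 0.142) and Cd300ld (0.63, adjusted p = 0.169) did not pass, although no cre library was below a wt library for either. The median log2 change of the 11 was 0.40. Similar members of this family can share reads too.

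The MS4A genes encode proteins that cross the membrane 4 times and sit beside receptors of macrophages. Of 11 tested, 3 rose (27.3%, against 0.731% of all genes tested), and the median of the family was 0.48. Ms4a4a went from 247, 323 and 334 to 1124, 793 and 754 CPM (log2 change 1.56, SE 0.20, edgeR adjusted p = 0.0128), Ms4a7 from 169, 259 and 254 to 797, 595 and 526 CPM (1.49, SE 0.22) and Ms4a6b from 218, 232 and 235 to 502, 387 and 373 CPM (0.88, SE 0.16). Ms4a6d did not pass (log2 change 0.62, adjusted p = 0.0952). The 3 that rose were already abundant in control macrophages, unlike Klra3 and Klra10.

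Costimulation genes moved both ways. Cd28 (ENSMUSG00000026012, chromosome 1, 60716800 to 60773359, plus strand), known as the costimulatory receptor of T cells, stood at 11.1, 14.9 and 16.1 CPM in wt and 93.8, 92.3 and 77.9 CPM in cre (log2 change 2.65, SE 0.20, edgeR adjusted p = 0.000446). Of 14 T, NK and innate lymphoid markers none was called by edgeR, and their median log2 change was -0.87. At an unadjusted p under 0.05 there were 6, all lower (42.9%, against 12.8% of all genes tested). DESeq2 called 1 (7.14%, against 3.39%). Their summed level was 144, 142 and 166 CPM in wt and 173, 102 and 141 CPM in cre. The part of T cells in the Cd28 values was not tested. The SLAM receptors, which bind each other on contacting immune cells, split. Cd84 rose from 123, 141 and 129 to 310.3, 214 and 257 CPM (log2 change 0.99, SE 0.17, edgeR adjusted p = 0.0328). Cd244a fell from 44.1, 32.8 and 31.9 to 16.5, 17.6 and 13.4 CPM (log2 change -1.19, SE 0.21, edgeR adjusted p = 0.0411). Slamf7 (log2 change 0.50, adjusted p = 0.254) and Ly9 (0.86, adjusted p = 0.300) did not pass. Cd22, an inhibitory receptor known from B cells that binds sialic acid, rose from 4.51, 7.94 and 4.50 to 30.7, 19.9 and 15.2 CPM (log2 change 1.96, SE 0.35, edgeR adjusted p = 0.0411). Of 16 B and plasma cell markers none was called by edgeR, and the median was -0.26. At an unadjusted p under 0.05 there was 1 (6.25%), and DESeq2 called 0. The part of B cells in the Cd22 values was not tested. Trem2, a receptor for lipids and apoptotic cells, rose from 95.7, 70.0 and 80.2 to 377, 221 and 287 CPM (log2 change 1.85, SE 0.22, edgeR adjusted p = 0.00822).

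Of the 14 receptor genes called, Cd28 passed in each analysis without 1 library. Without cre 10, 3 of the 14 passed, without wt 4 there were 2, without cre 8 there were 3, without wt 2 there were 5, without wt 6 there were 6 and without cre 9 there were 8. For Klra3 the edgeR adjusted p was 0.0645 without wt 2, 0.0779 without cre 8 and 0.0880 without cre 10, and for Cd200r4 it reached 0.124 without cre 10.

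**Figure D2:**
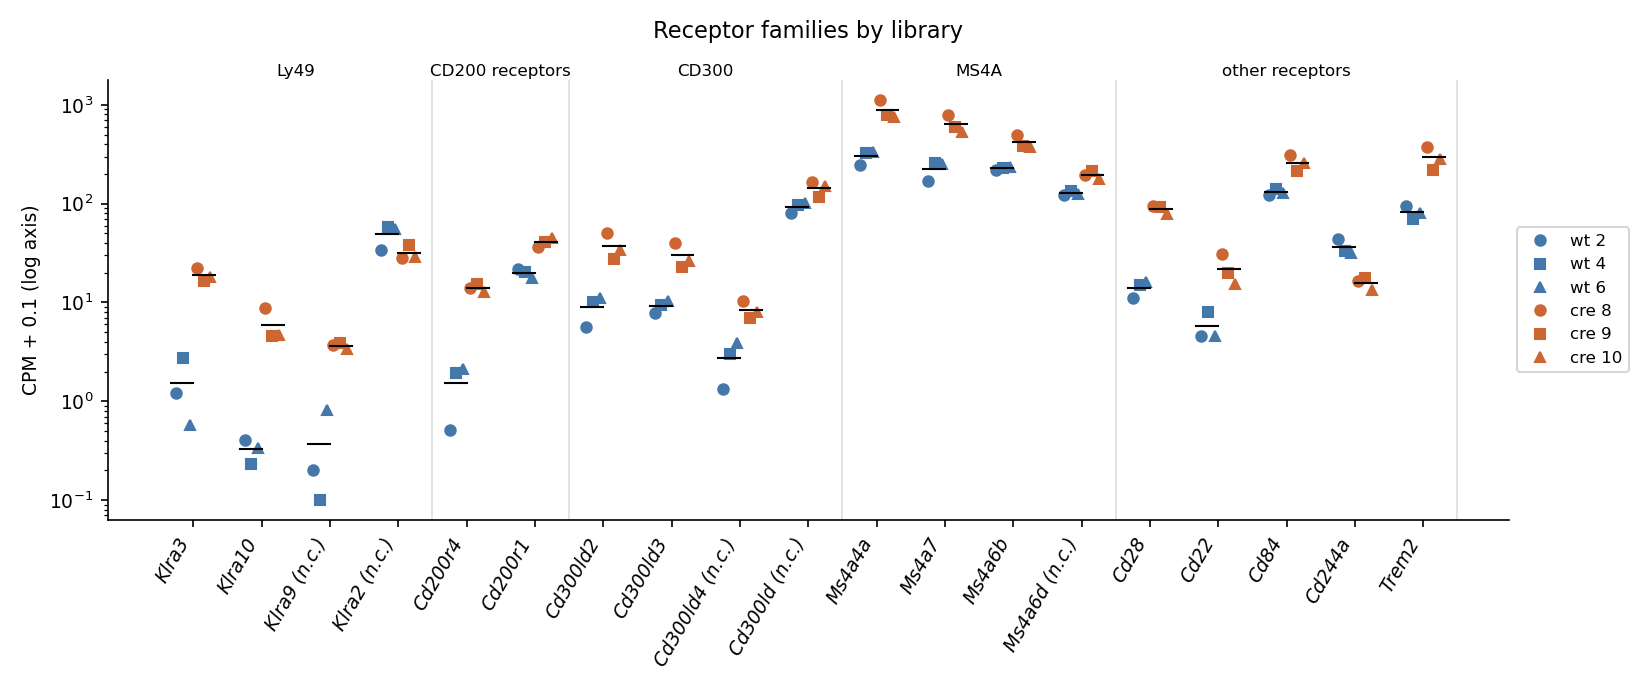
CPM + 0.1 on a log axis for receptor genes by family, with 1 point per library (blue wt, orange cre, the symbol giving the mouse) and a line at each group mean, and genes that were not called marked n.c. For each called gene the 3 cre points lie on one side of the 3 wt points: above for all but Cd244a, and with the widest gap for the Ly49 genes and Cd200r4.

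Several secreted proteins were encoded by genes that rose. Gdf15 (ENSMUSG00000038508, chromosome 8, 70629393 to 70632456, minus strand), a stress hormone that lowers appetite through the brainstem, stood at 69.8, 95 and 125 CPM in wt and 489, 346 and 421 CPM in cre (log2 change 2.12, SE 0.23, edgeR adjusted p = 0.00555). It was the single gene called among 25 measured genes of the ATF4 stress response and amino acid supply, whose median was -0.02. Wfdc17, a small whey acidic protein type factor of macrophages, went from 80.8, 71.6 and 56.0 to 339, 260.2 and 226 CPM (log2 change 1.98, SE 0.21, edgeR adjusted p = 0.00419). The anti-inflammatory cytokine gene Il10 rose from 54.2, 49.9 and 43.7 to 92.7, 116 and 123 CPM (log2 change 1.16, SE 0.17, edgeR adjusted p = 0.0220) and was the 1 gene called among 30 interleukins and other cytokine ligands.

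Ccl8, a chemokine for monocytes and lymphocytes, rose from 21.5, 50.5 and 38.0 to 119.7, 127 and 90.1 CPM (log2 change 1.62, SE 0.29, edgeR adjusted p = 0.0449). It was the 1 chemokine called of 26. Cxcl1 (1.13, adjusted p = 0.0770), Pf4 (1.64, adjusted p = 0.0522) and Cxcl3 (0.94, adjusted p = 0.127) had positive log2 changes that did not pass. Pf4, the platelet factor 4 gene, stood at 158, 335 and 278 CPM in wt and 1087, 629 and 688 CPM in cre. Lgals3, which encodes the galactose-binding lectin galectin-3, rose from 978, 663 and 839 to 2679, 1637 and 2118 CPM (log2 change 1.38, SE 0.22, edgeR adjusted p = 0.0285), and Grn, the precursor of progranulin, from 1168, 1162 and 1116 to 3173, 2397 and 2737 CPM (log2 change 1.27, SE 0.16, edgeR adjusted p = 0.00954). Vcam1, an adhesion ligand of leukocyte integrins, rose from 70.7, 143 and 102 to 378, 338 and 267 CPM (log2 change 1.64, SE 0.26, edgeR adjusted p = 0.0267). Spp1, which encodes osteopontin, stood at 62.3, 12.8 and 11.3 CPM in wt and 197, 175 and 275 CPM in cre, and did not pass (log2 change 2.90, edgeR adjusted p = 0.212).

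The matrix metalloproteinase gene Mmp27 had no count in any wt library and 232 counts over the cre libraries, at 10.8, 10.7 and 9.25 CPM. With 3 counts set as the floor of each wt library, it was at least 29.0-fold higher in cre (edgeR adjusted p = 0.00221). Of 55 matrix proteases and inhibitors, Mmp27 and the intracellular serpin gene Serpinb6a rose and Mmp23 fell (5.45% called, against 0.944% of all genes tested). Mmp12, the macrophage elastase, did not pass (log2 change -0.99, adjusted p = 0.110). Tnfsf13b, the B cell survival factor BAFF, was lower in all cre libraries at 14.1, 13.6 and 13.2 CPM against 31.6, 28.4 and 24.1 CPM and lay at the edge of the threshold (-1.04, adjusted p = 0.0513). Of the 9 rises of secreted and adhesion genes, Gdf15, Wfdc17 and Mmp27 passed in each analysis without 1 library. Without cre 10 or wt 6 these 3 passed, without wt 2 or wt 4 there were 4, and without cre 8 or cre 9 there were 5. For Il10 the edgeR adjusted p reached 0.149 without cre 10, and for Ccl8 it reached 0.16 without cre 8. The ninth was the selenium carrier gene Selenop, described with iron and redox genes.

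Some enzymes of amino sugars and sialic acid rose. The list for their turnover, with 25 measured genes, was drawn up after the values were seen. Of the 25, 6 rose (24%, against 0.731% of all genes tested) and none fell, and the median was 0.48. At an unadjusted p under 0.05 there were 10 higher and 2 lower (48%, against 12.8%), and DESeq2 called 9 (36%, against 3.39%). Npl (ENSMUSG00000042684, chromosome 1, 153503015 to 153550045, minus strand), the lyase that splits free sialic acid in the cytosol, showed the largest change, from 22.7, 41.3 and 40.5 CPM to 313, 185 and 172 CPM (log2 change 2.68, SE 0.31, edgeR adjusted p = 0.00837). Renbp, which turns the resulting N-acetylmannosamine into N-acetylglucosamine, rose from 53.0, 81.9 and 59.1 to 174, 135 and 133 CPM (log2 change 1.19, SE 0.20, edgeR adjusted p = 0.0328). The next enzymes of that salvage route, the kinase gene Nagk (log2 change 0.74, adjusted p = 0.248) and the deaminase gene Gnpda1 (0.64, adjusted p = 0.412), did not pass. Uap1l1, a relative of the pyrophosphorylase that makes UDP-N-acetylglucosamine, rose from 123, 143 and 111 to 386, 259 and 275 CPM (log2 change 1.29, SE 0.19, edgeR adjusted p = 0.0235). Uap1 itself (-0.54, adjusted p = 0.203) and Pgm3 (-0.56, adjusted p = 0.442) of the biosynthetic route had negative values that did not pass. Galk2, a kinase for N-acetylgalactosamine, rose by a small and even amount, from 33.1, 30.8 and 30 to 54.3, 56.1 and 59.5 CPM (log2 change 0.86, SE 0.15, edgeR adjusted p = 0.0411). The remaining 2 were Naglu (1.14, SE 0.19) and Hexa (0.90, SE 0.17), lysosomal hexosaminidases. Galnt6, which starts mucin-type O-glycans, was the 1 gene called of 76 glycosylation enzymes and rose from 19.8, 21.4 and 18.4 to 66.5, 45.6 and 54.5 CPM (log2 change 1.48, SE 0.20, edgeR adjusted p = 0.0143).

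Genes of sugar phosphates, polyols and glycogen also held calls, on another list drawn up afterwards. Of its 26 genes 4 were higher and 1 lower (19.2%, against 0.944% of all genes tested), with a median of 0.03. Slc37a2, a sugar phosphate carrier of the endoplasmic reticulum in macrophages, rose from 59.6, 64.6 and 48.9 to 191, 151 and 186 CPM (log2 change 1.61, SE 0.17, edgeR adjusted p = 0.00465). Sord, which converts sorbitol to fructose, rose from 47.9, 43.5 and 40 to 136, 87.1 and 94.5 CPM (log2 change 1.27, SE 0.20, edgeR adjusted p = 0.0267). Gyg, the glycogenin primer of glycogen, rose from 68.4, 54.5 and 51.3 to 139, 107 and 109 CPM (log2 change 1.03, SE 0.18, edgeR adjusted p = 0.0359), whereas Pygm, a glycogen phosphorylase known from muscle, fell from 29.5, 25 and 19.6 to 6.37, 9.01 and 7.12 CPM (log2 change -1.71, SE 0.25, edgeR adjusted p = 0.0234). Idh1, the cytosolic NADPH-forming isocitrate dehydrogenase, rose from 39.3, 54.4 and 36.3 to 90.3, 103 and 109 CPM (log2 change 1.22, SE 0.19, edgeR adjusted p = 0.0267) and was the 1 gene called of 10 in the pentose phosphate and NADPH list. Of the 12 genes called in these groups, Npl and Slc37a2 passed in each analysis without 1 library. Without cre 10 these 2 passed, without wt 2, wt 4 or wt 6 there were 3, without cre 8 there were 4 and without cre 9 there were 6. For Renbp the adjusted p reached 0.156 without cre 10. Sord, Gyg, Renbp and Galk2 fall outside the rule for named genes and were chosen after their values were seen.

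Of 25 iron and heme handling genes 2 rose (8%, against 0.731% of all genes tested), 19 were positive, and the median was 0.38. Hmox1, the heme oxygenase, rose from 30.7, 37.8 and 35.7 to 108, 64.1 and 81.0 CPM (log2 change 1.28, SE 0.21, edgeR adjusted p = 0.0303). Ftl1, the light chain of the iron store ferritin, rose from 1004, 1052 and 954 to 2488, 1700.4 and 2022 CPM (log2 change 1.04, SE 0.17, edgeR adjusted p = 0.0303). The heavy chain gene Fth1 (log2 change 0.59, adjusted p = 0.173), the transferrin receptor gene Tfrc (1.92, adjusted p = 0.0633) and the ferritin autophagy receptor gene Ncoa4 (0.75, adjusted p = 0.104) did not pass. Tfrc stood at 6.66, 2.65 and 3.91 CPM in wt and 12, 17.0 and 21.6 CPM in cre. Of 37 antioxidant genes of the NRF2 list, Prdx1, a peroxiredoxin, rose beside Hmox1 and Ftl1, from 296, 322 and 290.1 to 601, 476 and 519 CPM (log2 change 0.81, SE 0.15, edgeR adjusted p = 0.0415), and the median was 0.01. The share called higher in that list was 8.11%, against 0.731% of all genes tested. Sod3, the extracellular superoxide dismutase, did not pass (log2 change -1.60, adjusted p = 0.0551). The selenium carrier gene Selenop, chosen after its values were seen, rose from 664, 1072 and 1176 to 2416, 2573 and 2061 CPM (log2 change 1.28, SE 0.22, edgeR adjusted p = 0.0359). None of Hmox1, Ftl1 and Prdx1 passed in any analysis without 1 library, apart from the one without cre 9, where 2 passed. Without cre 10 the adjusted p of Ftl1 was 0.169 and that of Hmox1 0.156.

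**Figure D3:**
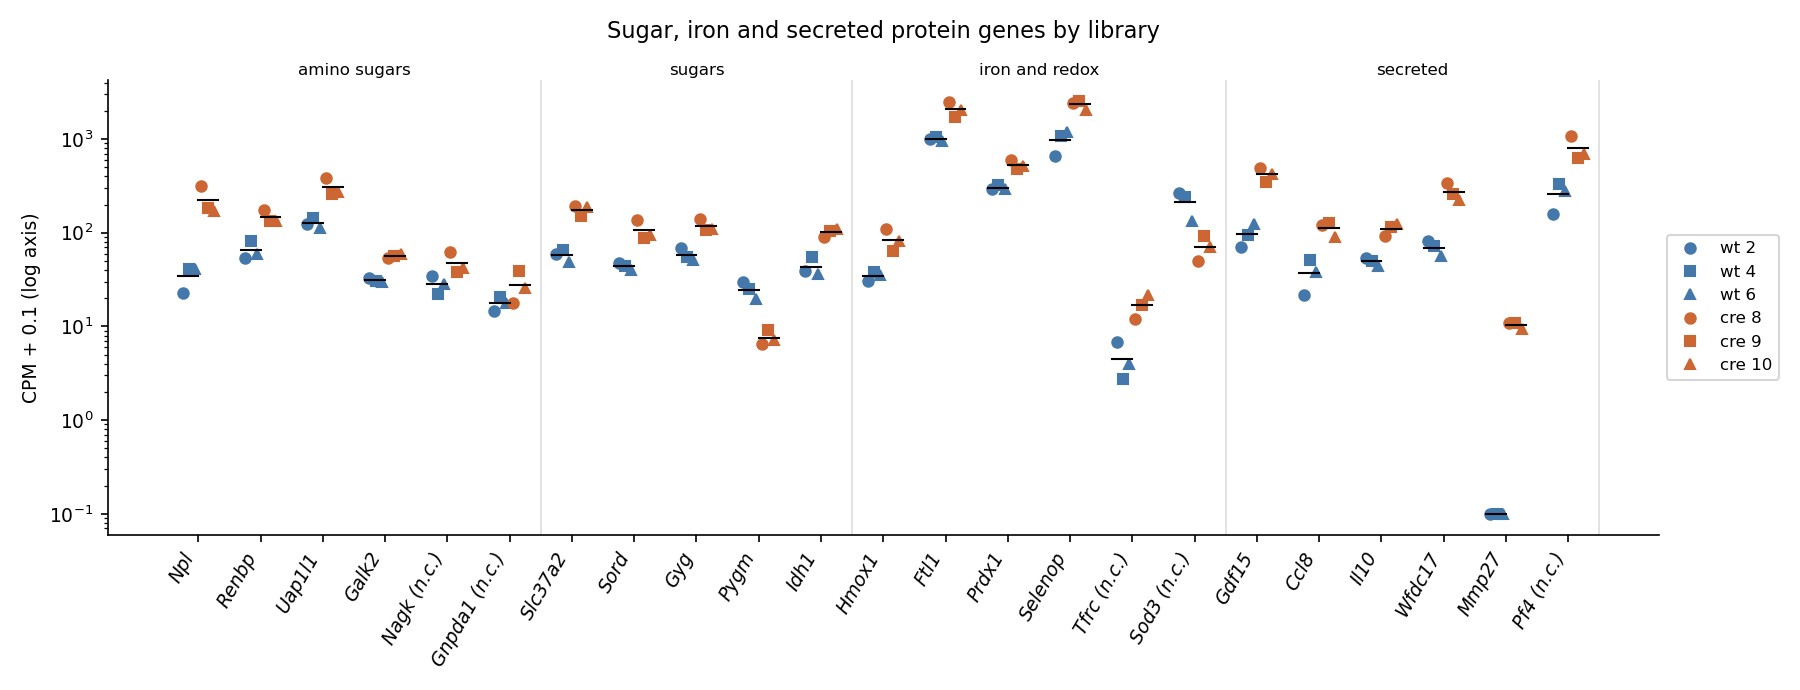
CPM + 0.1 on a log axis for genes of amino sugars, other sugars, iron and redox, and secreted proteins, with 1 point per library (blue wt, orange cre) and a line at each group mean, and genes that were not called marked n.c. Pygm is the 1 called gene drawn that lies lower in cre, Mmp27 sits at 0 counts in all wt libraries, and cre 8 is often the highest point.

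A further 12 genes that rose are described here with proteins of endosomes and lysosomes, a grouping made after their values were seen. Pld3, a lysosomal nuclease, rose from 121, 140.4 and 116 to 566, 414 and 445 CPM (log2 change 1.91, SE 0.17, edgeR adjusted p = 0.00151), and Dpp7, a lysosomal dipeptidase, from 38.9, 38.4 and 35.1 to 129, 97.8 and 95.8 CPM (log2 change 1.52, SE 0.17, edgeR adjusted p = 0.00611). Of 79 ion channels and pumps 3 rose (3.8%, against 0.731% of all genes tested), and the 3 are known from lysosomes. They were Clcn7, the chloride and proton exchanger, from 33.6, 42.3 and 38.7 to 82.7, 80.4 and 91.4 CPM (log2 change 1.15, SE 0.16, edgeR adjusted p = 0.0170), Atp13a2, a polyamine pump, from 121, 105 and 119 to 282, 220.2 and 244 CPM (log2 change 1.11, SE 0.15, edgeR adjusted p = 0.0169), and Mcoln3, a cation channel. Mcoln3 had 1 count in wt and 64 in cre, a ratio of 73.0 with a counting interval of 12.6 to 2926 (edgeR adjusted p = 0.0267). The next 6 genes, of traffic and membrane transport, were chosen after their values were seen. Plekhm1, an adaptor for fusion of autophagosomes with lysosomes, rose from 14.3, 18.3 and 15.2 to 30.8, 36.4 and 38.3 CPM (log2 change 1.14, SE 0.20, edgeR adjusted p = 0.0331), Wdr91, which acts in endosome maturation, from 18.7, 18.7 and 19.0 to 54.9, 38.3 and 38.1 CPM (1.22, SE 0.20), and Vps33a of the tethering complexes from 37.4, 28.8 and 32.9 to 75.1, 55.5 and 68.7 CPM (1.01, SE 0.18). The transporter-like lysosomal gene Mfsd1 (1.00, SE 0.14), its relative Mfsd11 (0.89, SE 0.16) and Gpr137b, a lysosomal membrane protein gene (1.08, SE 0.19), rose by about 2-fold. Tmem86a, which encodes an enzyme of ether lipid breakdown, rose from 61.5, 79.0 and 77.3 to 218, 188 and 172 CPM (log2 change 1.41, SE 0.17, edgeR adjusted p = 0.00822). None of 89 Rab GTPase genes (median 0.03) and none of 41 autophagy genes (median 0.14) was called by edgeR. At an unadjusted p under 0.05 there were 10 (11.2%) and 7 (17.1%), against 12.8% of all genes tested. DESeq2 called 2 (2.25%) and 1 (2.44%), against 3.39%. Of these 12 rises Pld3, Dpp7 and Tmem86a passed in each analysis without 1 library. Without wt 4, wt 6 or cre 10 these 3 passed, without wt 2 there were 4, without cre 8 there were 5 and without cre 9 there were 6. For Clcn7 the adjusted p reached 0.131 without cre 10.

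The E-box TCACGTGA is a sequence bound by the MiT/TFE family, and promoters of the called genes were searched for it as a description. RefSeq (build GRCm38.p6) gave promoters, from 250 bases before to 50 bases after a start, for 63 of the 103 genes called higher, 22 of the 30 called lower and 9498 of the genes tested. On either strand TCACGTGA stood in 7 of 63 promoters of genes called higher (11.1%, 95% Wilson interval 5.49 to 21.2%), in 1 of 22 of genes called lower (4.55%) and in 216 of 9498 of all genes tested (2.27%). The shorter core CACGTG, which every TCACGTGA holds, stood in 22.2%, 9.09% and 11.8%. The palindromic CLEAR element, which adds 1 base at each end, stood in 1.59%, 0% and 0.79%. As other motifs, TGANTCA stood in 12.7%, 4.55% and 6.69%, and TGACGTCA in 0%, 0% and 3.42%. A match is not a shown binding site. The 7 genes are lysosomal or endosomal: Atp6v1a of the proton pump, Clcn7, the proteases Ctsa, Ctsd and Dpp7, Mfsd1 and Vps33a. The stretch around each match is shown for these 7, since they are the genes called higher that share a sequence the choice of genes did not use. Each is written 5′ to 3′ on the strand of the gene with TCACGTGA in capitals.
Atp6v1a, chr16:44139369-44139406, minus strand: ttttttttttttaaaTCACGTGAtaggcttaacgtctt
Clcn7, chr17:25133382-25133419, plus strand: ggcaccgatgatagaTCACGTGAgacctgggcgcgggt
Ctsa, chr2:164833745-164833799, plus strand: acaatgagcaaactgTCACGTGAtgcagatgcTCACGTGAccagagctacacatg
Ctsd, chr7:142387904-142387941, minus strand: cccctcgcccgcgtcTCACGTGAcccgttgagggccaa
Dpp7, chr2:25356384-25356421, minus strand: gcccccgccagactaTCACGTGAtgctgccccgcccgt
Mfsd1, chr3:67582682-67582771, plus strand: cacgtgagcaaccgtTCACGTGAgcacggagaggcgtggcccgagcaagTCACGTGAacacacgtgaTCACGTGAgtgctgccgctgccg
Vps33a, chr5:123573006-123573059, minus strand: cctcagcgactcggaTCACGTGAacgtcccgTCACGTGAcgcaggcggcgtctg

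Mfsd1 held 3 copies, Ctsa and Vps33a 2 each, and the second copy of Vps33a lies within a CLEAR element. The 1 promoter with the motif among the falls was that of Fbln1, a matrix gene. The genes with the motif rose by similar amounts, with log2 changes of 0.97 for Ctsa, 0.99 for Atp6v1a, 1.00 for Mfsd1, 1.01 for Vps33a, 1.15 for Clcn7 and 1.52 for Dpp7, with the exception of Ctsd at 2.83. The genes for the factors themselves did not pass. Of 10 members of the MiT/TFE and folliculin list none was called by edgeR. At an unadjusted p under 0.05 there were 4, all higher (40%, against 12.8% of all genes tested), and DESeq2 called 1 (10%, against 3.39%). The median was 0.45, and 8 were positive. The GTPase gene Rragd, itself a known target of these factors, had a log2 change of 2.95 (adjusted p = 0.104) and Tfec 1.06. Rragd stood at 1.23, 0.132 and 1.78 CPM in wt and 12, 4.12 and 8.97 CPM in cre, with no overlap.

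Among the remaining rises were genes best known from nerve and muscle. Syngr1, a membrane protein of synaptic vesicles, went from 4.20, 4.23 and 6.40 CPM to 103, 60.4 and 69.5 CPM (log2 change 3.97, SE 0.29, edgeR adjusted p = 0.000428). Rapsn, which clusters receptors at the nerve-muscle synapse, rose from 3.07, 5.16 and 4.15 to 30, 19.8 and 15.4 CPM (log2 change 2.40, SE 0.34, edgeR adjusted p = 0.0181), and Cnrip1, which binds a cannabinoid receptor, from 6.45, 7.14 and 6.28 to 44.9, 32.8 and 32.7 CPM (log2 change 2.47, SE 0.22, edgeR adjusted p = 0.00151). Ttyh2, a membrane protein of the tweety family, rose from 12.2, 18.7 and 13.7 to 105, 66.9 and 80.0 CPM (log2 change 2.499, SE 0.24, edgeR adjusted p = 0.00221). The low-count sodium channel subunit gene Scn3b, chosen after its values were seen, had 1 count in wt and 79 in cre, a ratio of 90.1 with a counting interval of 15.7 to 3602. Stxbp5, which binds syntaxin (2.40, SE 0.39), the mitochondrial gene Tmem65 (1.997, SE 0.37) and the sodium pump regulator gene Fxyd2 (1.70, SE 0.27) rose too. Of 18 endothelial, glial and nerve markers none was called by edgeR, 11 were positive, and the median log2 change was 0.42. At an unadjusted p under 0.05 there was 1 (5.56%, against 12.8% of all genes tested), and DESeq2 called 1 (5.56%, against 3.39%). Their summed level was 539, 337 and 529 CPM in wt and 142, 923 and 930 CPM in cre. Of the nerve genes among them Vip, a neuropeptide gene, was highest in cre 10, where it stood at 414 CPM, against 0.152 CPM in cre 8, 0 in cre 9 and 21.8, 0.132 and 3.32 CPM in wt. Uchl1 stood at 7.99, 0.397 and 6.64 CPM in wt and 1.37, 4.67 and 43.3 CPM in cre, and Tubb3 at 5.63, 3.57 and 4.38 and 1.82, 3.34 and 32.7 CPM. Syngr1, Rapsn, Cnrip1 and Ttyh2 were highest in cre 8. The part of nerve cells in these rises was not tested.

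Further rises were in enzymes and in genes of other functions. Ada, which deaminates adenosine, rose from 7.17, 8.20 and 6.52 to 33.5, 20.3 and 15.9 CPM (log2 change 1.67, SE 0.31, edgeR adjusted p = 0.0455), and Gdpd1, a lysophospholipase D, from 8.09, 13.2 and 21.9 to 44.5, 54.3 and 49.0 CPM (log2 change 1.77, SE 0.33, edgeR adjusted p = 0.0455). The aminopeptidase gene Aopep (1.57, SE 0.19), Adi1 of methionine salvage (1.38, SE 0.23), the polyamine oxidase gene Paox (1.14, SE 0.21) and the dipeptidase gene Cndp2 (1.11, SE 0.21) rose by 2-fold to 3-fold. Lars2, the mitochondrial leucyl transfer RNA synthetase, rose from 1248, 1519.5 and 1335 to 2729, 2119 and 2621 CPM (log2 change 0.86, SE 0.16, edgeR adjusted p = 0.0483). Among the cre libraries Lars2 was highest in cre 8 and lowest in cre 9, and among the wt libraries it was highest in wt 4. The ribosomal RNA share was highest in cre 10 and lowest in cre 9, and among the wt libraries highest in wt 4. The part of that share in the Lars2 result was not tested. Also called higher, and chosen after their values were seen, were the histone gene H2bc4 (1.23, SE 0.22), Mpp1 (1.11, SE 0.15), Vat1 (1.12, SE 0.19), Mroh1 (1.15, SE 0.19) and Abcf1 (0.90, SE 0.16). Of the 21 genes in these 2 groups, with Serpinb6a, 3 passed in each analysis without 1 library: Syngr1, Ttyh2 and Cnrip1. Without wt 2, wt 4, cre 8 or cre 10 there were 4, without wt 6 there were 5 and without cre 9 there were 12.

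Of the 103 rises 12 were in pseudogenes or genes with a pseudogene symbol and 8 in antibody variable segments. The pseudogenes Gm6166 (4.20, SE 0.30) and Gm14328 (4.07, SE 0.29) rose as Fabp5 did (4.20, SE 0.27), a fatty acid binding protein gene at 10.9, 8.20 and 9.36 CPM in wt and 238, 125 and 161 CPM in cre. Ftl1-ps1 (1.02, SE 0.18) and Ftl1-ps2 (1.01, SE 0.16) followed Ftl1, Atp6v0c-ps1 (1.14, SE 0.19) and Atp6v0c-ps2 (1.20, SE 0.19) followed Atp6v0c (1.15, SE 0.19), and Cd63-ps and Gpr137b-ps followed Cd63 and Gpr137b. Reads of a gene and its processed copies may not be told apart at this length. These 12 are part of the 133 calls. Without them and the 8 antibody segments, 113 genes were called, 83 higher and 30 lower. The antibody segments were nearly absent from wt. Igkv3-7 stood at 0.102, 0.132 and 1.42 CPM in wt and 39.9, 41.2 and 29.0 CPM in cre (log2 change 6.03, SE 0.65, edgeR adjusted p = 0.00616), and Igkv9-120 at 1.33, 0.397 and 1.07 and 68.9, 122 and 136 CPM (log2 change 6.81, SE 0.42, edgeR adjusted p = 0.000371). All antibody segments together took 0.417, 1.45 and 1.61% of counts in wt and 0.633, 1.08 and 1.18% in cre, so that the total overlapped between the genotypes.

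Falls were fewer, and included genes of signalling and of the cell surface. Of 19 dendritic cell markers, 12 were lower and 2 higher at an unadjusted p under 0.05 (73.7%, against 12.8% of all genes tested). Their median was -0.69, and DESeq2 called 6 (31.6%, against 3.39%). The part of dendritic cells in the falls below was not tested. Vipr2 (ENSMUSG00000011171, chromosome 12, 116077726 to 116146261, plus strand), a receptor for the gut neuropeptide VIP that raises cyclic AMP, stood at 35.0, 22.4 and 21.6 CPM in wt and 2.88, 4.90 and 4.13 CPM in cre (log2 change -2.72, SE 0.31, edgeR adjusted p = 0.00616). Pde1b, which degrades cyclic AMP and GMP, fell from 64.3, 54.1 and 35.3 to 14.1, 13.1 and 10.2 CPM (log2 change -2.03, SE 0.26, edgeR adjusted p = 0.0124). They were the 2 genes called of 46 in cyclic AMP signalling (4.35%, against 0.213% called lower of all genes tested), whose median was -0.14. Adcy3, an adenylyl cyclase, had a log2 change of 2.29 the other way (adjusted p = 0.0512). Of 91 other G protein-coupled receptor genes none was called by edgeR, and the median was -0.14. At an unadjusted p under 0.05 there were 20 (22%, against 12.8% of all genes tested), and DESeq2 called 6 (6.59%, against 3.39%).

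Tlr11, a sensor of profilin and flagellin in endosomes, fell from 11.9, 12.3 and 12.9 to 1.97, 3.90 and 3.42 CPM (log2 change -1.98, SE 0.32, edgeR adjusted p = 0.0302) and was the 1 gene called of 39 pattern receptors, whose median was 0.22. Mgl2, a lectin of alternatively activated macrophages and dendritic cells, fell from 549, 442 and 386 to 215, 216 and 245 CPM (log2 change -1.03, SE 0.17, edgeR adjusted p = 0.0302). Of 27 genes of alternative activation 22 were negative and the median was -0.30. Ear2 (-0.97, adjusted p = 0.0707) and Alox15 (-1.25, adjusted p = 0.160) did not pass. Eosinophil and mast cell markers summed to 100, 115 and 120 CPM in wt and 54.3, 47.7 and 84.0 CPM in cre, and the part of such cells in these values was not tested. Dcstamp, a fusion protein of osteoclasts and giant cells, fell from 174, 151 and 173 to 83.2, 57.2 and 61.2 CPM (log2 change -1.31, SE 0.18, edgeR adjusted p = 0.0169), while Atp6v0d2, a proton pump subunit also needed for fusion, rose from 3.99, 0.132 and 0.948 to 155, 101 and 154 CPM (log2 change 6.25, SE 0.83, edgeR adjusted p = 0.0359). Atp6v0d2 passed without wt 2 or wt 4. Its edgeR adjusted p was 0.11 without wt 6, 0.126 without cre 8, 0.0716 without cre 9 and 0.166 without cre 10. With Trem2 and Clcn7 higher, the osteoclast and fusion list held 3 rises and 1 fall. These were 21.1% of its 19 genes, against 0.944% of all genes tested.

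Fgfr1, a receptor of fibroblast growth factors, fell from 64.7, 73.8 and 77.3 to 25.2, 36.1 and 31.7 CPM (log2 change -1.21, SE 0.18, edgeR adjusted p = 0.0242). Plac8, a gene of monocytes, fell from 167, 169 and 119.5 to 58.1, 78.5 and 65.9 CPM (log2 change -1.17, SE 0.19, edgeR adjusted p = 0.0301) and was the 1 gene called of 15 monocyte markers (median -0.53), whose summed level was 2163, 2130 and 2424 CPM in wt and 1741, 1920 and 2052 CPM in cre. Itgae, which encodes the CD103 that the sort gate excluded, fell from 19.9, 15.1 and 14.1 to 3.49, 4.56 and 3.42 CPM (log2 change -2.09, SE 0.28, edgeR adjusted p = 0.0165). Since the antigen was used to choose the cells, and the dendritic cell markers that include it were lower in cre, the part of other cells in this value was not tested. Enpp3, an ectoenzyme of nucleotides known from mast cells and basophils, was chosen after its values were seen and fell from 5.43, 10.3 and 6.87 to 0.759, 1.56 and 0.569 CPM (log2 change -2.91, SE 0.49, edgeR adjusted p = 0.0313). Hsd11b1, which activates glucocorticoids, fell from 55.7, 89.0 and 48.6 to 17.0, 26.8 and 19.2 CPM (log2 change -1.61, SE 0.28, edgeR adjusted p = 0.0328), and Qpct, which caps peptides with pyroglutamate, from 99.8, 88.1 and 92.8 to 37.0, 42.4 and 44.8 CPM (log2 change -1.18, SE 0.15, edgeR adjusted p = 0.0128). H2-Oa (-1.05, SE 0.16), Septin6 (-1.21, SE 0.18), Serpinb6b (-1.58, SE 0.24) and Glipr2 (-1.19, SE 0.20) fell as well. None of these 17 falls, Cd244a and Pygm included, passed without cre 10, where the adjusted p was 0.0564 for Vipr2, 0.0880 for Qpct, 0.156 for Tlr11 and 0.153 for Fgfr1. Without wt 4 there were 2, without wt 2 or cre 8 there were 3, and without wt 6 or cre 9 there were 7.

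The other 13 falls are described with the fibroblast and smooth muscle markers, a list that holds 4 of them, and this grouping was made after their values were seen. Fbln1, which encodes the matrix protein fibulin-1, stood at 1239, 1182 and 497 CPM in wt and 215, 308 and 255 CPM in cre (log2 change -1.91, SE 0.33, edgeR adjusted p = 0.0383). Mfap4, of elastic fibres, fell from 325, 391 and 167 to 67.2, 80.4 and 57.4 CPM (log2 change -2.10, SE 0.30, edgeR adjusted p = 0.0227), and Aspn, a small proteoglycan, from 115, 121 and 99.6 to 24.3, 48.0 and 29.6 CPM (log2 change -1.72, SE 0.25, edgeR adjusted p = 0.0220). Also lower were Mmp23 (-1.96, SE 0.31), C1qtnf3 (-1.97, SE 0.32), Ccdc80 (-1.89, SE 0.27), the protease gene Htra3 (-1.80, SE 0.27), Fbln5 (-1.76, SE 0.32), Angptl2 (-1.62, SE 0.25), Fhl2 (-1.57, SE 0.26), the chemerin gene Rarres2 (-1.55, SE 0.28), Svep1 (-1.41, SE 0.22) and the complement protease gene C1ra (-1.11, SE 0.21). In each of Fbln1, Mfap4 and Htra3 the male control wt 6 was the lowest wt library.

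Stromal markers were lower in the same libraries. Of 25 measured fibroblast and smooth muscle markers, 20 were negative, the median was -1.17, and the 4 that passed (16%, against 0.213% of all genes tested) were Fbln1, Mfap4, Mmp23 and C1qtnf3. At an unadjusted p under 0.05 there were 17, all lower (68%, against 12.8% of all genes tested), and DESeq2 called 14 (56%, against 3.39%). The collagen gene Col1a1 stood at 287, 462 and 247 CPM in wt and 42.5, 187 and 82.3 CPM in cre (log2 change -1.67, adjusted p = 0.291) and the proteoglycan gene Dcn at 889, 978 and 561 and 191, 433 and 351 CPM (-1.31, adjusted p = 0.114), and neither passed. Smooth muscle genes of the list had log2 changes of 0.04 for Acta2, 0.01 for Des and -0.02 for Myh11. The part of stromal cells in the 13 falls was not tested, and fewer such cells and less RNA per cell cannot be told apart in bulk samples. In males alone, a fit with 1 wt library, the change was smaller than over all 6 libraries for each of the 13, with a median of -1.26 in place of -1.76, and for 12 of the other 17 falls, with a median of -1.31 in both. The log2 change of Fbln1 was then -0.93 in place of -1.91, that of C1qtnf3 -1.93 in place of -1.97, that of Pde1b -1.49 in place of -2.03 and that of Vipr2 -2.42 in place of -2.72. Without cre 10, wt 4 or cre 8 none of the 13 passed, without wt 2 there was 1, without cre 9 there were 6 and without wt 6 there were 9. For Fbln1 the edgeR adjusted p ranged from 0.00392 without wt 6 to 0.217 without cre 10.

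**Figure D4:**
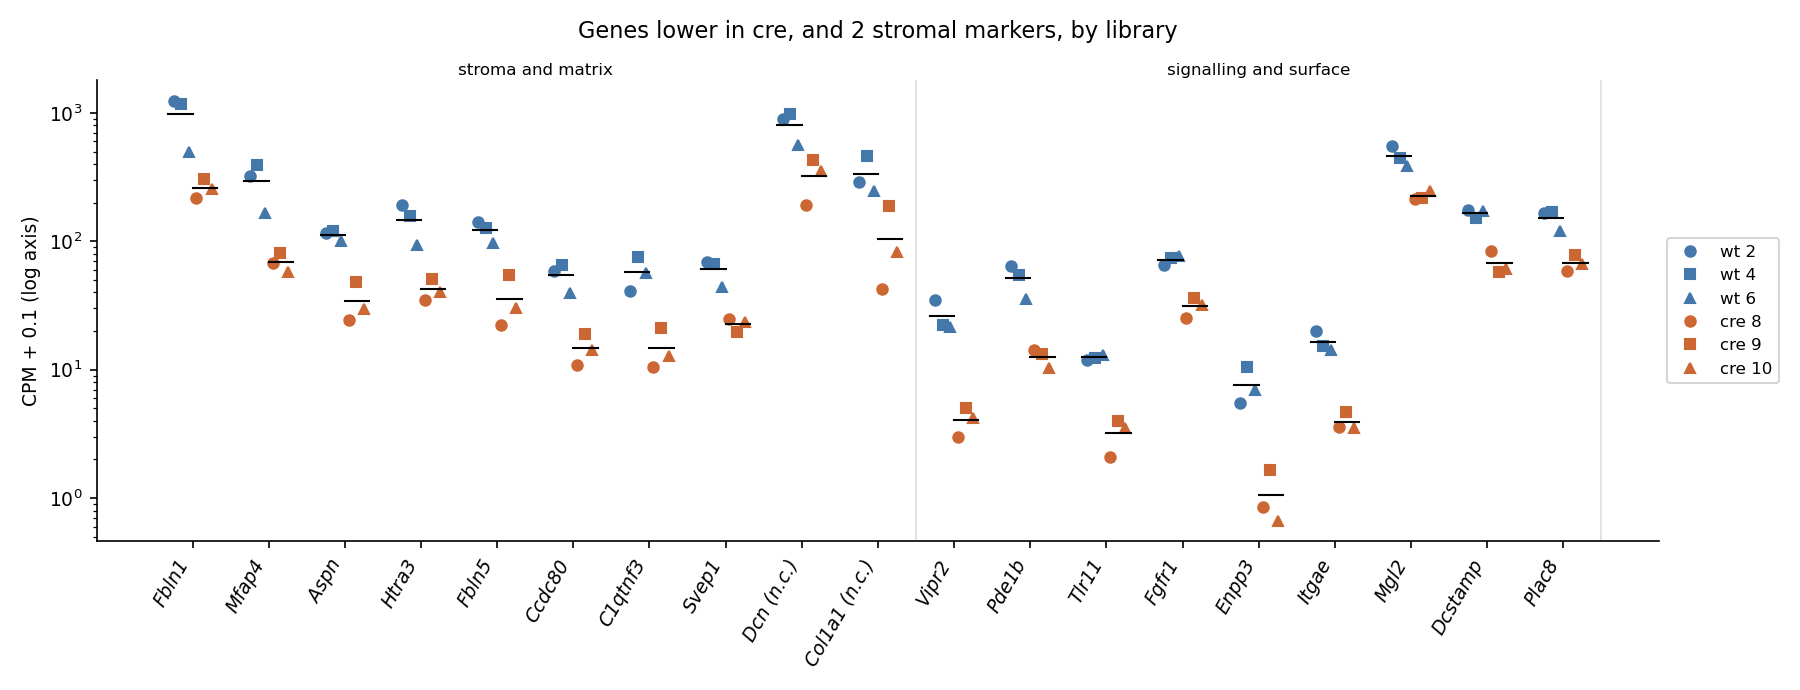
CPM + 0.1 on a log axis for genes lower in cre, in a group of matrix and stromal genes with the markers Dcn and Col1a1 and a group of signalling and surface genes, with 1 point per library (blue wt, orange cre) and a line at each group mean. In the first group wt 6 lies nearest to the cre libraries for most genes. In the second wt 6 is also the lowest wt library for Vipr2, Pde1b, Itgae, Mgl2 and Plac8. For Tlr11, Fgfr1, Dcstamp and Enpp3 another wt library is lowest.

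Given first are 12 lists for growth and metabolic functions known to be set by mTORC1, all without a called gene. Gdf15 of the ATF4 list and Idh1 of the pentose phosphate list were called as given above. By edgeR none passed among 28 genes of the TSC complex and mTORC1 (median log2 change 0.07), 20 of glycolysis (0.02), 28 of the tricarboxylic acid cycle (-0.17), 75 nuclear genes of oxidative phosphorylation (0.09), 24 of sterol synthesis (0.00), 18 of fatty acid synthesis (-0.12) and 26 of nucleotide and one-carbon synthesis (-0.04). The same was true of 82 cytosolic ribosomal proteins (-0.09), 40 translation factors (-0.11), 37 genes of ribosome biogenesis (-0.02), 43 of the proteasome (0.01) and 27 of the hypoxia response (-0.23). For all 14087 genes the median was 0.00. These 12 lists held 441 different genes. Of these, 19 had an unadjusted p under 0.05 with a higher and 29 with a lower level in cre (10.9%, against 12.8% of all genes tested). DESeq2 called 6 (1.36%, against 3.39%). The pool was made of lists without a call, so that its shares do not stand for all growth and metabolic genes. Outside it, an unadjusted p under 0.05 was held by 26.3% of 19 transfer RNA synthetases and 33.3% of 27 amino acid carriers. For 21 genes of PI3K, AKT and insulin receptor substrates the share was 0%. In the TSC and mTORC1 list all 7 genes with an unadjusted p under 0.05 (25%) were higher. Negative values were held by 61 of 82 cytosolic ribosomal proteins and 29 of 40 translation factors, against 6977 of all 14087 genes. At an unadjusted p under 0.05, 7 of these ribosomal proteins were lower and 1 higher (9.76%). All 6 such translation factors were lower (15%). The smallest p in the 12 lists was that of Plin2, a lipid droplet gene of the hypoxia list, at 289, 216 and 197 CPM in wt and 637, 365 and 477 CPM in cre (log2 change 1.08, adjusted p = 0.0770), followed by Phgdh of the serine pathway (-1.99, adjusted p = 0.0836). The first of the mTORC1 list was the kinase subunit gene Mlst8 (0.94, adjusted p = 0.194), of glycolysis the hexokinase gene Hk3 (0.66, adjusted p = 0.215) and of the tricarboxylic acid cycle the fumarase gene Fh1 (-0.85, adjusted p = 0.242). Phgdh stood at 7.17, 6.22 and 6.87 CPM in wt and 0.759, 2.11 and 2.13 CPM in cre, with no overlap. Since simulated 2-fold changes were recovered in 22% of cases and 4-fold changes in 78%, small shifts of single genes in these lists were mostly out of reach.

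Further lists without a call are given by their counts. Of 27 amino acid carrier genes 19 were positive and the median was 0.32, with Slc43a2 (0.71, adjusted p = 0.0891), Slc6a6 (0.63, adjusted p = 0.169) and Slc7a7 (0.61, adjusted p = 0.204) among them, and the cationic amino acid exporter of lysosomes, Pqlc2, had a log2 change of 1.25 (adjusted p = 0.0836). Of 50 interferon-stimulated genes 33 were positive, with a median of 0.19. Of 30 genes of cell division 21 were positive (median 0.21, Mki67 0.97), and of 38 genes of DNA replication 26 were negative (median -0.15). None of 75 transcription factors of macrophages, 50 cytokine receptors, 34 chemokine receptors, 11 Fc receptors and 67 MAP kinase genes was called by edgeR, with medians between -0.18 and 0.26. Of these 235 different genes 42 had an unadjusted p under 0.05 (17.9%, against 12.8% of all genes tested), 26 of them lower, and DESeq2 called 9 (3.83%, against 3.39%). At an unadjusted p under 0.05 there were 9 amino acid carriers (33.3%), 8 of them higher, and 6 interferon-stimulated genes (12%). There were 7 genes of cell division (23.3%) and 6 of DNA replication (15.8%), against 12.8% of all genes tested. In these 4 lists DESeq2 called 3 (11.1%), 1 (2%), 0 and 0, against 3.39%.

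**Figure D5:**
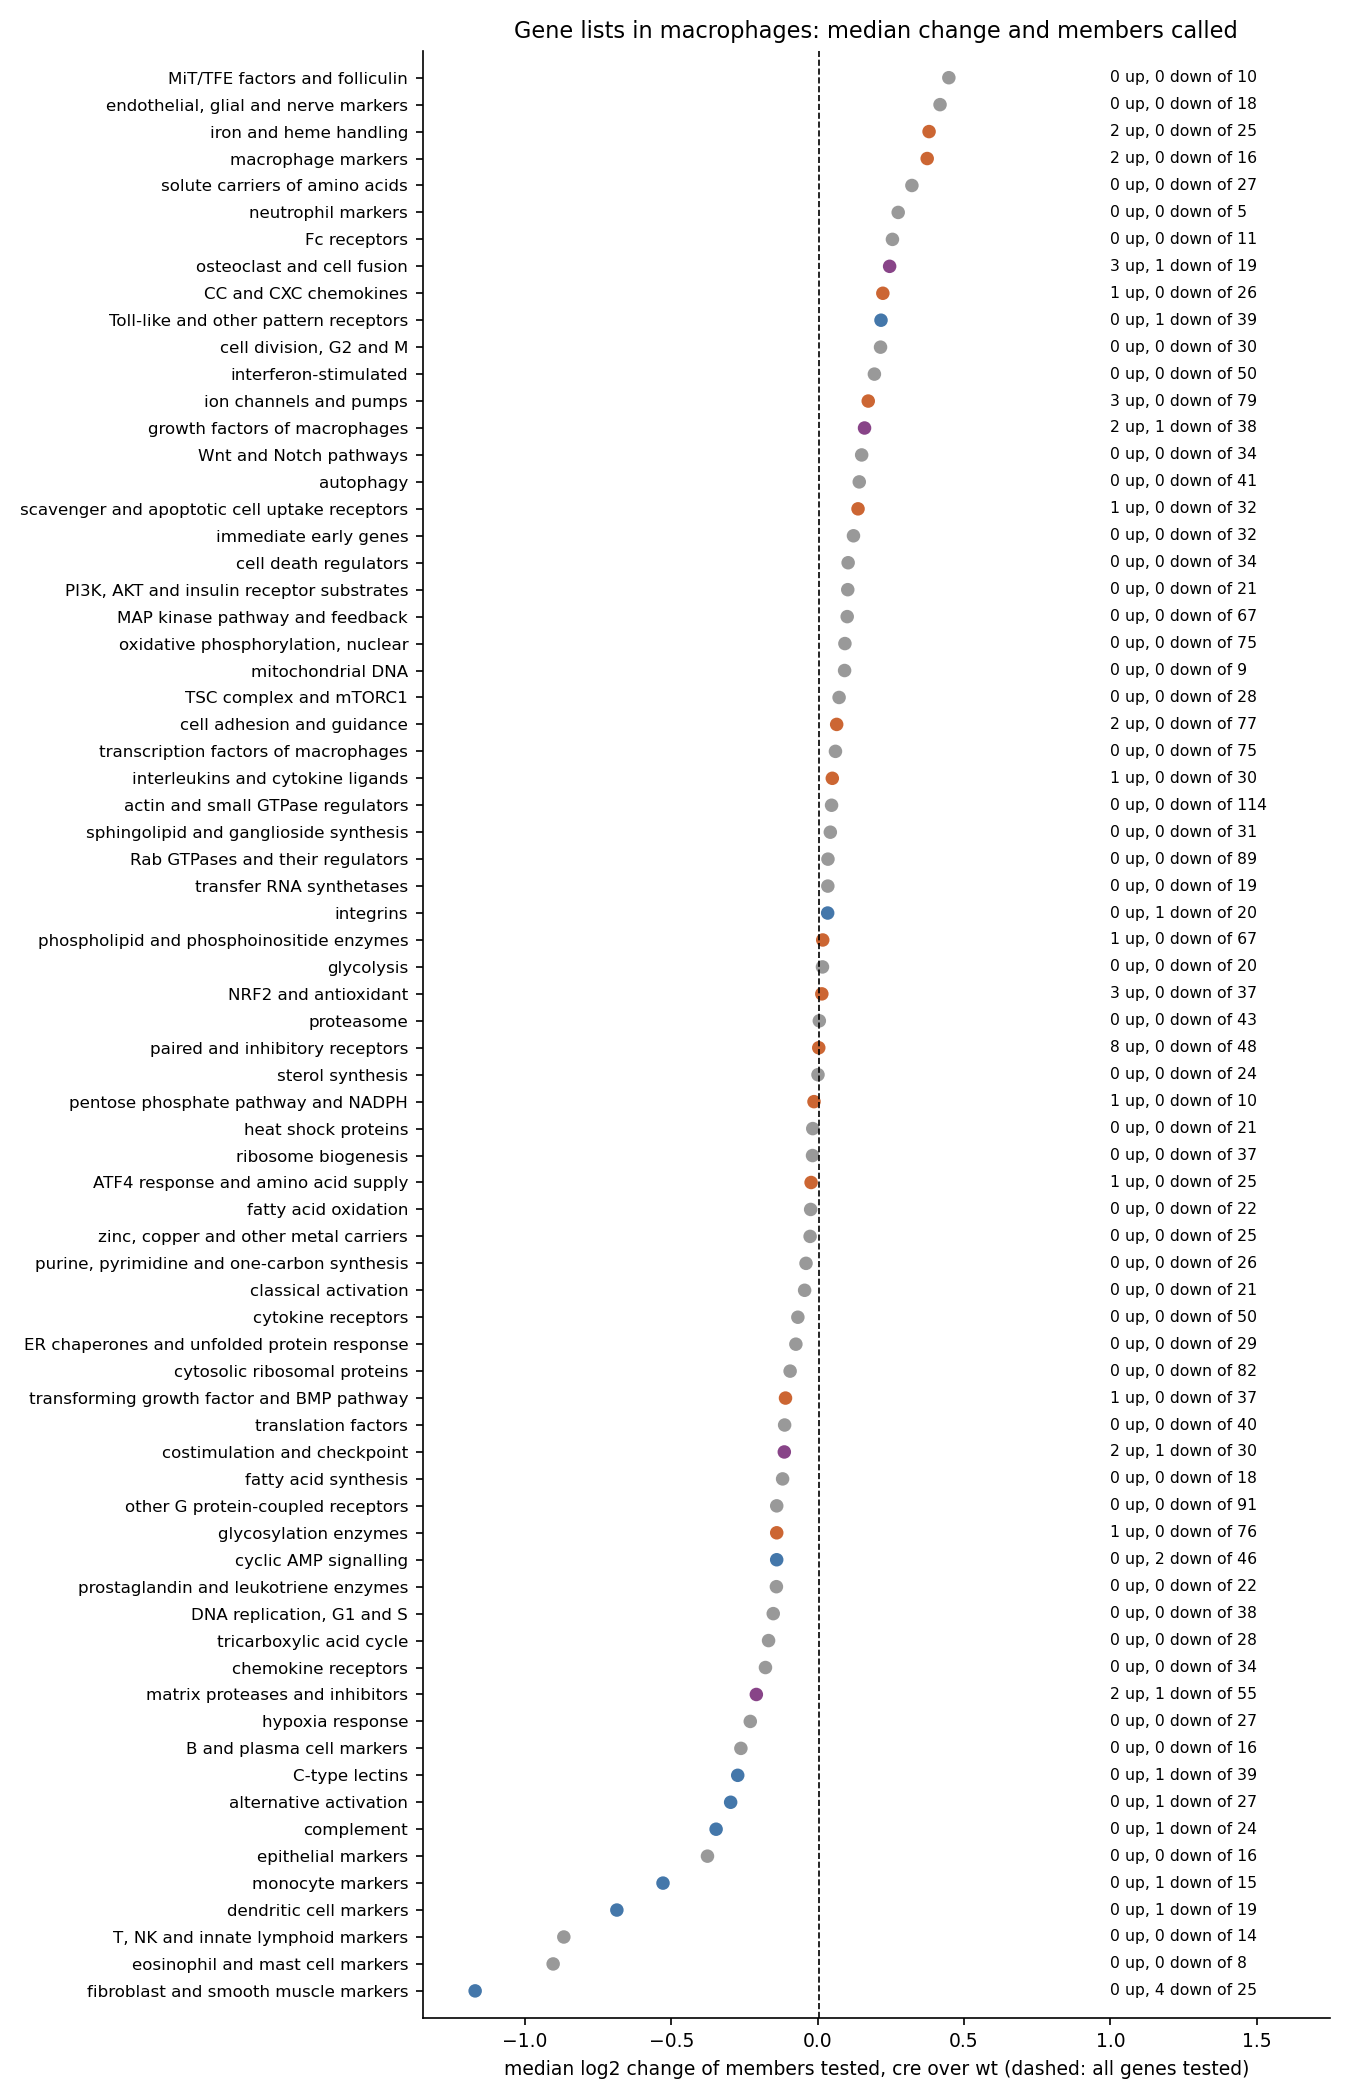
Each row is 1 of the lists drawn up first, without the lysosome list and the families added later, with its median log2 change, cre over wt, on the horizontal axis, the dashed line marking the median of all 14087 genes, and the numbers of members called and tested at the right (orange, only rises; blue, only falls; purple, both; grey, none). The medians drawn run from -1.17 for fibroblast and smooth muscle markers to 0.45 for MiT/TFE factors and folliculin, and the paired receptors hold 8 rises with a median at the line.

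Epithelial cells of the same genotypes served to ask which changes differed from those in other cells of the colon. The difference of the genotype effects was tested in all 14 libraries, and 115 of 16375 genes (0.702%) passed, 40 of them among the 133. Of these 40, 33 were higher and 7 were lower in cre macrophages. Besides Gpnmb and Fabp5 they included Syngr1, with a difference of 3.41 on the log2 scale (SE 0.38), Ttyh2 (2.58, SE 0.30), Pld3 (1.65, SE 0.20), Idh1 (1.30, SE 0.24). Npl and Mcoln3 passed too, but lay below 1 CPM in epithelial cells and could not be tested there, so that the size of their difference is not given. Of the falls Vipr2 (-2.59, SE 0.50), Pde1b (-2.08, SE 0.39), Plac8 (-1.25, SE 0.21) and Fbln1 (-2.48, SE 0.37) differed. Of the 133 genes, 83 could be tested in epithelial cells alone, where 1243 of 13553 genes (9.17%) were called. There 16 were called with the same sign and 1, Gm38394, a gene with a provisional name, with the opposite sign. Ftl1 was one of the 16, with a log2 change of 0.56 in epithelial cells against 1.04 in macrophages, and its difference did not pass (edgeR adjusted p = 0.285). Sord (0.43), Galnt6 (0.52), Cndp2 (0.52) and Ada (0.72) had epithelial rises as well, and for none of the 4 did the difference pass. The difference passed for 21 genes with sex in the model, 65 without cre 10, 75 without wt 2 and 229 without wt 6. With mouse number as a block it passed for 7, in a fit of only the mouse numbers with libraries of both cell types.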

How the data were processed

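Smart-seq2 cDNA, which does not keep the strand, was sequenced as single reads of 50 bases, per the labels' protocols. The authors deposited whole-number counts per gene and, as a second table, FPKM. In the submitters' processing notes stand STAR 2.5.2b, Picard 2.19.2 and DESeq2 1.24.0, with the genome GRCm38. The sources used here do not give what each did, nor the counting program, annotation or strand setting. Antisense partners, paralogs and pseudogenes may therefore have mixed reads. Groups, mouse numbers and sex came from the labels.

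The counts in the 6 macrophage columns were fitted with edgeR 4.0.16 (R 4.3.3), scaled by TMM and filtered by genotype with filterByExpr (minimum count 10). Genotype was tested by the robust quasi-likelihood F test, and p-values were adjusted by Benjamini-Hochberg over all genes tested, with 0.05 as threshold. SE is the log2 change over the root of F. For the difference from epithelial cells the model held all 14 libraries in 4 groups. CPM were computed from the counts and TMM library sizes. No pair of libraries of a genotype was a copy (chi-square per degree of freedom 15.0 to 40.9). Library measures were compared with an exact two-sided permutation test.

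The rule for named genes took Tsc2 and Lyz2. Of called genes with at least 5 CPM on average, it took the 40 that rose most and the 30 that fell most. That choice passed over provisional names, sex-linked genes and segments of antibodies and T cell receptors. It also took every called member of the lists drawn up first, and up to 4 members of a described list with the smallest p. The 5 smallest p for the difference from epithelial cells and abundant markers of other cells were taken too. Outside this rule, Ms4a6b, Stxbp5, Paox, Cndp2, Lars2, the antibody segments and the -ps genes were chosen after their values were seen. The 73 lists and 7 added family lists have no set test. The members and lists were chosen with earlier results of these data known, so that their shares of called genes are descriptions. In lists, 25 symbols were unmatched or held by more than 1 row. Gene coordinates are those of GENCODE M21 on GRCm38, and promoters those of RefSeq on GRCm38.p6. Alternatives were RLE size factors, DESeq2 1.42.0, other filters, voom and log2(FPKM + 1) with limma 3.58.1, sex, males only, all 14 libraries, each library left out, and a promoter window of 150 bases. On simulated data with known changes in macrophages edgeR recovered 22% of 2-fold and 78% of 4-fold changes and called 15 unchanged genes, and DESeq2 42%, 93% and 46. The 95% intervals and the floors reflect counting error alone, as PCR copies are not independent molecules.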

Additional observations from a re-analysis of the deposited data

Results flagged for a closer look

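The genotype effect differed between macrophages and epithelial cells for 115 of 16375 genes, by a test of the difference of the log2 changes in all 14 libraries with edgeR. Of these, 40 were among the 133 genes called in macrophages. The 5 with the smallest p were all larger in macrophages. The difference was 7.83 for Gpnmb (SE 0.58, adjusted p = 4.27e-06), where the epithelial change was -0.29, and 3.88 for Fabp5 (SE 0.30, adjusted p = 4.27e-06), where it was 0.29. The pseudogenes Gm14328 and Gm6166, which match Fabp5 and may share its reads, differed by 3.89 (SE 0.39) and 3.69 (SE 0.35). For the protease gene Ctsd the difference was 2.27 (SE 0.25, adjusted p = 0.000251), with an epithelial change of 0.52 that passed by itself (adjusted p = 0.00990).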

How the results depend on the processing

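The count of 133 called genes in macrophages was 485 with DESeq2 (263 higher, 222 lower), 299 without a filter on low counts (179 and 120), 200 with voom and quality weights (134 and 66), 374 with all 14 libraries in one fit (238 and 136), 32 in males alone, 30 on log2(FPKM + 1) without a filter (29 and 1) and 2 with sex in the model. The share of higher calls was thus 54.2, 59.9, 67, 63.6, 62.5, 96.7 and 100% against 77.4%. Leaving out 1 library gave 29 to 87. RLE size factors gave 131, a minimum count of 50 gave 182, and log2(FPKM + 1) and log2(FPKM + 0.1) gave 127 and 110. No scaling moved the median of all genes by 0.1 or more. The called genes without antibody segments, and a further set of named genes, were followed through the alternatives. Of these, only Tsc2 turned its sign, to 0.31 with sex in the model and 0.32 in males alone. For the genes followed, 947 other values lost and 150 gained a call and 2660 did neither.

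No paired analysis was possible within macrophages because the genotypes share no mouse number. For the difference from epithelial cells, the replicate block on mouse number gave 7 genes in place of 115. That fit held only the mouse numbers with libraries of both cell types. Deviations of same-numbered macrophage and epithelial libraries correlated by -0.03 to 0.09. Without a comparison to libraries of unlike number, this cannot decide whether same-numbered libraries came from the same mouse. The count of 115 became 504 with DESeq2 and 21 with sex in the model, and 65 to 229 without 1 library. With a promoter window of 150 bases before the start, TCACGTGA stood in 9.52% of promoters of genes called higher and 1.52% of all tested. Simulated 2-fold changes were mostly missed, so that an uncalled gene may still differ.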
